A study of Homo sapiens with 6 samples.

Results

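The genes described here encode the collagens, the proteins whose chains wind around one another into a helix and are laid down outside the cell. They were chosen by name, as every protein-coding gene in the count table whose symbol reads COL, digits, A, digits, which gave 44 of 61487 gene IDs. By the kind of assembly their chains form, 11 are fibrillar, 6 are the type IV chains of the basement membrane and 27 belong to other classes. The cells were H2170, an established line of human lung squamous cell carcinoma, in which ACK1 (IDRmut) fused to GFP (IDRmut), ACK1 (WT) fused to GFP (WT) or GFP alone (Control) was expressed, so that all 3 groups carried GFP. TNK2 is the gene of ACK1, a tyrosine kinase of the cytoplasm. The labels leave out which residues IDRmut alters, whether the cells of a group are a clone or which promoter drove the transgenes. The series asks what ACK1 condensates do to gene expression. Poly-A RNA was sequenced from 2 libraries per group, with 20346572 and 21922477 counts in IDRmut, 20033289 and 33540998 in WT and 20154935 and 19128111 in Control.

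Collagen chains share a repeat in which glycine recurs at a fixed spacing, and chains of the same type number (such as COL4A1 and COL4A2) join into mixed or uniform trimers. Fibrillar collagens build the fibres of connective tissue, type IV collagens form the sheet-like network of the basement membrane on which epithelium rests, and type XVII is a transmembrane collagen that ties basal epithelial cells to it. Chains are hydroxylated and folded in the endoplasmic reticulum, exported in large carriers, trimmed of their ends and crosslinked outside the cell.

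The targeted gene was above Control in both arms, with TNK2 at 1762 and 1455 CPM in IDRmut, 3514 and 3613 CPM in WT and 41.1 and 43.1 CPM in Control, where CPM is the count relative to the library total after TMM scaling. TNK2 was lower in IDRmut than in WT by edgeR's quasi-likelihood test (-1.15 ± 0.06 on the log2 scale, adjusted p 2.8e-10), so the IDR change and the lower ACK1 transcript level cannot be told apart in any comparison of IDRmut with WT. Across genes, the Spearman correlation within a group was 0.996 to 0.997, and replicates differed beyond counting error, by a chi-square per gene of 3.65 in IDRmut, 1.55 in WT and 1.66 in Control. The 10 epithelial and squamous markers did not settle the labelled cell type. EPCAM and CDH1 were nearly absent, with at most 4 counts in any library, and the other 8 were tested. Of these, 5 rose and 2 fell in IDRmut and 4 rose and 4 fell in WT against Control, at an adjusted p under 0.05. That is 87.5% and 100% of the 8, beside 31.6% and 35.0% of all 16591 tested genes. Values of KRT19 and TP63, which were also tested, are not given here. KRT14 had 993 and 888 CPM in IDRmut, 636 and 608 CPM in WT and 1414 and 1434 CPM in Control, and SOX2 had 298 and 289.8 CPM in IDRmut, 233 and 236 CPM in WT and 351 and 327 CPM in Control. KRT8 had 76.0 and 68.9 CPM in IDRmut, 28.8 and 27.6 CPM in WT and 12.7 and 11.3 CPM in Control, KRT6A 100.1 and 93.7 CPM in IDRmut, 44.1 and 46.3 CPM in WT and 28.6 and 28.7 CPM in Control, KRT5 29.5 and 28.4 CPM in IDRmut, 7.94 and 8.69 CPM in WT and 14.7 and 12.8 CPM in Control and KRT18 7.81 and 6.37 CPM in IDRmut, 10.3 and 11.2 CPM in WT and 1.52 and 1.77 CPM in Control. KRT14 and SOX2 were thus highest in Control, and KRT8, KRT6A and KRT18 lowest there. Of 10 fibroblast markers, the matrix proteoglycans DCN and LUM had at most 5 counts in any library and TCF21 none, while MFAP5, a microfibril protein, had 1228 and 1305 CPM in IDRmut, 1016 and 1048 CPM in WT and 1124 and 1128 CPM in Control. The 6 leukocyte markers summed to between 0.507 and 1.26 CPM. In these bulk libraries fewer cells that express a gene and less RNA per cell cannot be told apart.

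Collagen transcripts made up 0.482% and 0.457% of all counts in IDRmut, 0.348% and 0.352% in WT and 0.418% and 0.421% in Control. The 44 genes summed to 4817 and 4554 CPM in IDRmut, 3411 and 3454 CPM in WT and 4274 and 4329 CPM in Control, so each group's libraries stood apart from those of the others, with IDRmut highest and WT lowest. An exact permutation test of 2 libraries against 2 cannot go below p = 0.33, so the sums are given without a test. A few genes held most of this: COL17A1, COL1A2, COL11A1, COL5A2 and COL14A1 together made up 78.3% and 79.0% of the summed CPM in IDRmut and 79.7% and 79.8% in Control. In WT the leading 5 held 72.3% and 72.5%, with COL6A1 in place of COL14A1. The summed level of the fibroblast markers was also highest in IDRmut, with 1302 and 1379 CPM in IDRmut, 1054 and 1089 CPM in WT and 1187 and 1197 CPM in Control, with most of it from MFAP5 and with DCN, LUM, PI16 and TCF21 at or near 0.

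Of the 44 genes, 27 passed the filter on low counts and were tested. The other 17 had between 0 and 12 counts in every library, and COL22A1 had none in any. Of the 27, 21 were over the filter level in all 3 groups. COL13A1, COL1A1 and COL6A3 passed through both ACK1 arms alone, COL8A1 through WT alone, and COL10A1 and COL3A1 were over it in both libraries of no group. Levels between genes were compared per kilobase of exon. On that scale COL17A1 led, at 161 ± 8.53 CPM per kb in IDRmut, 113 ± 2.54 in WT and 187 ± 3.16 in Control (SD, n = 2). COL1A2 followed at 78.8 ± 3.86, 60.1 ± 0.540 and 74.3 ± 1.2 CPM per kb in the same groups. Averaged over the groups, COL11A1 and COL5A2 stood next at 59.9 and 59.6 CPM per kb, an order that IDRmut and WT shared and Control did not, and COL14A1 and COL6A1 at 38.1 and 38.0 CPM per kb changed places between groups. Below them 8 genes lay between 3.36 and 11.3 CPM per kb, and COL7A1 at 2.79.

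**Figure D1:**
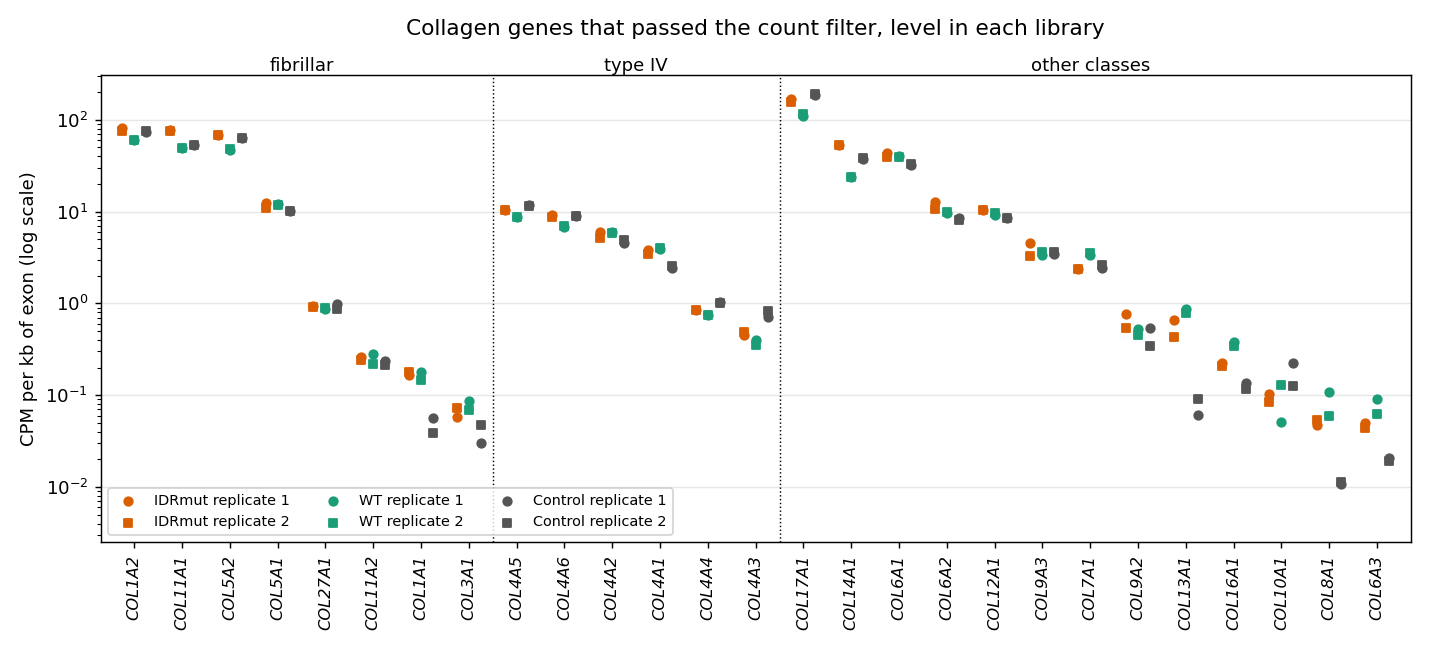
Level of the 27 tested collagen genes in each library, in CPM per kb of exon on a log axis, grouped into fibrillar, type IV and other classes; circles are replicate 1 and squares replicate 2. COL17A1 is highest. The Control points of COL1A1, COL13A1, COL8A1 and COL6A3 lie below those of both ACK1 arms, but these genes passed the filter only where they were high.

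Among the 21 collagen genes over the filter level in all 3 groups, 10 were higher and 3 lower in IDRmut against Control, and 8 were higher and 9 lower in WT against Control, by edgeR's quasi-likelihood test at a Benjamini-Hochberg adjusted p under 0.05. The share of all 16591 tested genes called was 31.6% in IDRmut against Control (15.6% higher, 15.9% lower) and 35.0% in WT against Control (17.4% higher, 17.6% lower). Of the 21 collagen genes 61.9% and 81.0% were called, beside 33.1% and 36.4% of the 14444 genes that were over the filter level in every group, and their median log2 fold changes were 0.17 and -0.01, beside -0.01 and -0.01. In IDRmut against WT 9 of the 21 were higher and 2 lower, or 52.4%, beside 28.5% of the 14444 genes and 26.5% of all tested genes (12.3% higher, 14.2% lower). The 14444 genes were not matched to the collagen genes in level, and 9 of the 21 were above 100 CPM in every library. Small differences pass more easily at high counts, so no excess is read from these shares. Over all 27 tested collagen genes the counts were 14 higher and 3 lower in IDRmut against Control, 12 higher and 9 lower in WT against Control, and 9 higher and 3 lower in IDRmut against WT. They include COL13A1, COL1A1, COL6A3 and COL8A1, which passed the filter only where they were high, so these counts are a description. Both comparisons with Control use the same Control libraries, so their agreement is not counted as a result: 11 genes were called higher in both, 3 lower in both, 3 in opposite directions, and 4 in WT alone, over the 27. Over the 27, the count for IDRmut against Control fell to 10 without Control replicate 1, with 8 higher, and 9 were higher without Control replicate 2. Without IDRmut replicate 1, 6 genes in place of 3 were lower in IDRmut than in WT, and DESeq2 called 1 lower.

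**Figure D2:**
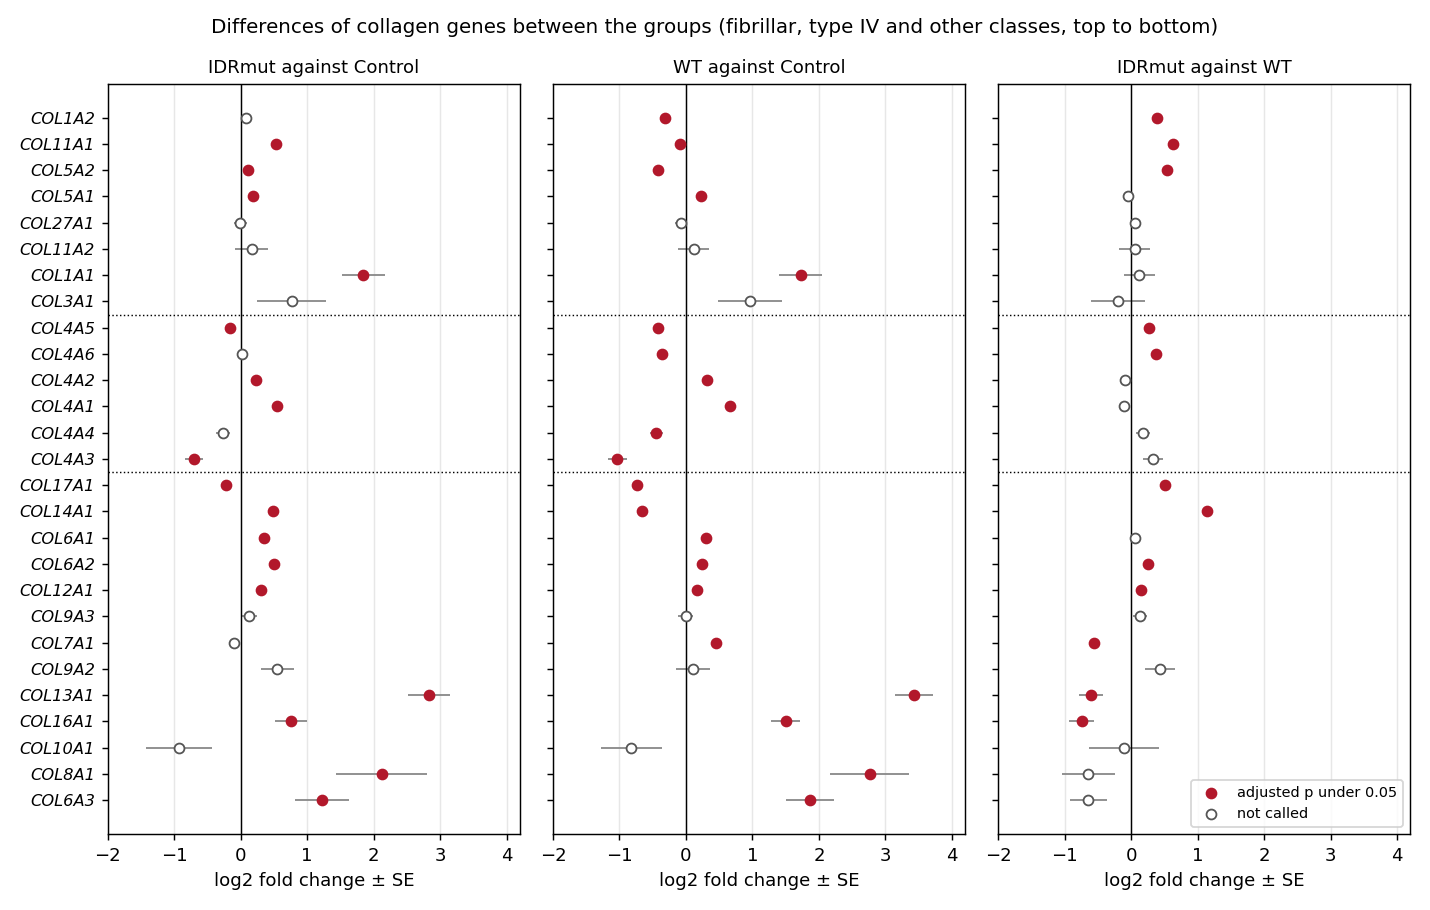
Log2 fold change ± SE of the 27 tested collagen genes in the 3 comparisons; filled points passed an adjusted p under 0.05 and open points did not. COL13A1, which passed the filter through the ACK1 arms alone, has the largest value against Control (2.83 in IDRmut and 3.43 in WT), and COL14A1 the largest difference between IDRmut and WT (1.15).

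Among the fibrillar collagens, COL11A1, COL5A2 and COL1A2 were higher in IDRmut than in WT. Of the 6 fibrillar genes over the filter level in all 3 groups, 3 rose and none fell in IDRmut, 1 rose and 3 fell in WT, and 3 were higher and none lower in IDRmut than in WT. The share called was 50%, 66.7% and 50% in that order, beside 33.1%, 36.4% and 28.5% of the 14444 genes over that level. No excess is read from 6 genes. Type I collagen, the main fibre of skin and bone, is built from the chains of COL1A1 and COL1A2, and in these cells the chains were far apart in level. COL1A2 (ENSG00000164692, chromosome 7 from 94394561 to 94431232) had 909.9 and 849 CPM in IDRmut, 666 and 674 CPM in WT and 819.9 and 839 CPM in Control. WT libraries lay below all others. COL1A1 (ENSG00000108821, chromosome 17 from 50183289 to 50201632) had 33 and 39 counts in IDRmut, 36 and 49 counts in WT and 11 and 7 counts in Control, or 1.62 and 1.77 CPM in IDRmut, 1.76 and 1.43 CPM in WT and 0.558 and 0.376 CPM in Control. Both arms lay above Control without overlap, though with few reads. Per kilobase of exon COL1A2 exceeded COL1A1 by a factor of 494 and 421 in IDRmut, 332 and 414 in WT and 1293 and 1961 in Control.

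COL1A1 passed the filter through the ACK1 arms alone, so its fitted log2 fold changes against Control, 1.84 ± 0.33 in IDRmut and 1.72 ± 0.32 in WT, are given without a test. The difference between the arms was 0.12 ± 0.23 (adjusted p 0.76). COL1A2 fell in WT, at -0.31 ± 0.04 (adjusted p 4.7e-06), and was higher in IDRmut than in WT by 0.39 ± 0.04 (adjusted p 5.1e-07). In IDRmut against Control COL1A2 had 0.08 ± 0.04, which did not pass (adjusted p 0.094). It passed there with upper-quartile scaling, with offsets for GC content and length, and without IDRmut replicate 2 (adjusted p over the alternatives 9.1e-04 to 0.46).

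Type XI collagen takes part in thin fibres, best known from cartilage, and type V collagen starts the assembly of type I fibres. COL11A1 (ENSG00000060718, chromosome 1 from 102876467 to 103108872) had 711 and 689.9 CPM in IDRmut, 451 and 452 CPM in WT and 485 and 480.1 CPM in Control. IDRmut stood clear of the other groups, and WT was just below Control. It rose in IDRmut by 0.54 ± 0.03 (adjusted p 2.6e-09) and exceeded WT by 0.63 ± 0.03 (adjusted p 4.8e-10). Its fall in WT, -0.09 ± 0.03 (adjusted p 0.038), was lost in 8 alternatives, DESeq2, upper-quartile scaling, no filter, the replicate block and leaving out either WT or either Control library (adjusted p over the alternatives 0.0016 to 0.2). COL5A2 (ENSG00000204262, chromosome 2 from 189031896 to 189225312) had 514 and 505 CPM in IDRmut, 349 and 354 CPM in WT and 473 and 469 CPM in Control. The groups did not overlap, with IDRmut highest and WT lowest. It was higher in IDRmut by 0.11 ± 0.03 against Control (adjusted p 0.016) and by 0.54 ± 0.03 against WT (adjusted p 4.0e-09), and fell in WT by 0.42 ± 0.03 (adjusted p 3.4e-08). The call against Control in IDRmut was lost without either Control library (adjusted p over the alternatives 6.3e-04 to 0.13).

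COL5A1, the partner chain of COL5A2, did not share its order. COL5A1 (ENSG00000130635, chromosome 9 from 134641774 to 134844843) had 139.6 and 121 CPM in IDRmut, 136 and 133 CPM in WT and 115 and 114 CPM in Control. Both arms were above Control, and the IDRmut replicates were farther apart than those of the other groups. It rose by 0.19 ± 0.05 in IDRmut (adjusted p 0.013) and by 0.23 ± 0.05 in WT (adjusted p 0.0026). The IDRmut call was lost without IDRmut replicate 1 or either Control library (adjusted p over the alternatives 4.0e-06 to 0.15). The difference between IDRmut and WT was -0.04 ± 0.05 (adjusted p 0.59), and it passed as lower in IDRmut without IDRmut replicate 1 (adjusted p over the alternatives 0.0088 to 0.81). Per kilobase of exon, COL5A2 exceeded COL5A1 by a factor of 5.53 and 6.25 in IDRmut, 3.85 and 3.99 in WT and 6.19 and 6.16 in Control. WT therefore had the lowest ratio of the chains.

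The remaining fibrillar genes passed no test. COL27A1 had 13.2 and 12.8 CPM in IDRmut, 12.2 and 12.6 CPM in WT and 13.7 and 12.3 CPM in Control and COL11A2 1.77 and 1.64 CPM in IDRmut, 1.91 and 1.46 CPM in WT and 1.57 and 1.45 CPM in Control. COL3A1, the chain of type III collagen, stood at 8 and 11 counts in IDRmut, 12 and 16 counts in WT and 4 and 6 counts in Control. It lies 19.1 kb from COL5A2 on chromosome 2, with the genes facing each other end to end, and per kilobase of exon COL5A2 was at 63.2 ± 0.436 and COL3A1 at 0.0386 ± 0.0124 CPM per kb in Control (SD, n = 2). COL2A1, COL5A3 and COL24A1 were not tested.

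All 6 type IV genes were tested, and the members of each head-to-head pair were called in the same direction in WT. In IDRmut this did not hold for each pair: COL4A3 and COL4A5 were called lower than Control, and their partners COL4A4 and COL4A6 were not called. COL4A1 and COL4A2, the chains of the widespread basement membrane network, were higher in both arms than in Control. COL4A3 and COL4A4, known from the kidney filter, and COL4A5 and COL4A6 were lower in WT than in Control. In all, 2 rose and 2 fell in IDRmut, 2 rose and 4 fell in WT, and 2 were higher and none lower in IDRmut than in WT. These calls were 66.7%, 100% and 33.3% of the 6. Among the 14444 genes over the filter level in every group, 33.1%, 36.4% and 28.5% were called. With so few genes, no excess is read from the shares. The genes of each pair lie head to head on opposite strands, so that the windows from 250 bases before to 50 bases after their starts overlap. Each overlapping stretch is shown because it lies in the windows of both genes of a pair. They come from RefSeq (GRCh38.p14), are read on the plus strand, and have in capitals each match on either strand to 4 motifs: CCAAT (known for NF-Y), GGGCGG (for Sp1), TATAAA (for the TATA-binding protein) and TTCNNNGAA (for STAT factors).
COL4A1/COL4A2, chr13:110307108-110307333: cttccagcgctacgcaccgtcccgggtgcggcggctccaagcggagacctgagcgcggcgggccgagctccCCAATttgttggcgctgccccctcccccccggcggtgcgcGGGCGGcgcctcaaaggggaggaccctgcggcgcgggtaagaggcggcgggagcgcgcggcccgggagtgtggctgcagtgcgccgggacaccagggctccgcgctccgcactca
COL4A4/COL4A3, chr2:227164374-227164455: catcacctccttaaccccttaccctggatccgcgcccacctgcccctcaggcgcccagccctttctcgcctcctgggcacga
COL4A6/COL4A5, chrX:108439588-108439708: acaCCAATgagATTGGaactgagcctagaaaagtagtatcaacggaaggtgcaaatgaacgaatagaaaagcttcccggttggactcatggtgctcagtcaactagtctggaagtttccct
The starts are those of 1 RefSeq window per gene, and any other starts were not used. They differ from the gene positions given below, which are from GENCODE and in which COL4A1 and COL4A2 overlap. The starts of COL4A1 and COL4A2 lay 127 bases apart, and their stretch held 1 CCAAT and 1 GGGCGG. Those of COL4A4 and COL4A3 lay 419 bases apart, with no match in the 82 shared bases. Those of COL4A6 and COL4A5 lay 380 bases apart, with 2 CCAAT matches in 121 bases, 1 on each strand. The GC content of the stretches was 76.5%, 67.1% and 44.6% in the same order.

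COL4A1 (ENSG00000187498, chromosome 13 from 110148963 to 110307233, minus strand) had 56.0 and 51.4 CPM in IDRmut, 57.3 and 58.4 CPM in WT and 35.6 and 38.0 CPM in Control. Its neighbour COL4A2 (ENSG00000134871, chromosome 13 from 110305812 to 110513209, plus strand) had 115 and 99.1 CPM in IDRmut, 116 and 112 CPM in WT and 88.2 and 94.9 CPM in Control. For each gene both arms lay above Control, and the arms overlapped for COL4A2 but not for COL4A1. COL4A1 rose by 0.55 ± 0.06 in IDRmut (adjusted p 2.3e-06) and 0.66 ± 0.06 in WT (adjusted p 1.3e-07). COL4A2 rose by 0.22 ± 0.06 in IDRmut (adjusted p 0.0087) and 0.32 ± 0.06 in WT (adjusted p 4.2e-04). The IDRmut call of COL4A2 was lost without IDRmut replicate 1 or Control replicate 1 (adjusted p over the alternatives 4.2e-06 to 0.15). The ratio of COL4A2 to COL4A1 per kilobase was 1.57 and 1.47 in IDRmut, 1.54 and 1.47 in WT and 1.89 and 1.91 in Control, so Control had relatively less COL4A1. Between the arms neither gene passed, at -0.11 ± 0.05 and -0.09 ± 0.06 (adjusted p 0.15 and 0.26). Both passed as lower in IDRmut without IDRmut replicate 1, with adjusted p over the alternatives of 0.022 to 0.57 and 0.0014 to 0.89; COL4A2 also passed with offsets for GC content and length.

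COL4A3 (ENSG00000169031, chromosome 2 from 227164565 to 227314792, plus strand) had 4.12 and 4.41 CPM in IDRmut, 3.67 and 3.22 CPM in WT and 6.44 and 7.48 CPM in Control. COL4A4 (ENSG00000081052, chromosome 2 from 227002711 to 227164453, minus strand) had 8.59 and 8.6 CPM in IDRmut, 7.54 and 7.6 CPM in WT and 10.4 and 10.3 CPM in Control. Control was highest and WT lowest for both genes, without overlap. COL4A3 fell by 0.70 ± 0.14 in IDRmut (adjusted p 0.001) and by 1.03 ± 0.14 in WT (adjusted p 2.0e-05), to 0.490 of the Control level in WT. COL4A4 fell in WT by 0.45 ± 0.10 (adjusted p 0.0021). In IDRmut COL4A4 had -0.27 ± 0.10, which did not pass (adjusted p 0.057) except with offsets for GC content and length (adjusted p over the alternatives 0.042 to 0.33). Differences between the arms were 0.33 ± 0.15 for COL4A3 and 0.18 ± 0.10 for COL4A4 (adjusted p 0.13 and 0.21).

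COL4A5 (ENSG00000188153, chromosome X from 108439844 to 108697545, plus strand) had 125 and 124 CPM in IDRmut, 103 and 103 CPM in WT and 139.7 and 137 CPM in Control. COL4A6 (ENSG00000197565, chromosome X from 108155607 to 108439497, minus strand) had 85.7 and 80.7 CPM in IDRmut, 62.7 and 65.4 CPM in WT and 82.5 and 82.3 CPM in Control. WT was lowest for both, and for COL4A6 the IDRmut and Control libraries overlapped. COL4A5 fell by 0.43 ± 0.04 and COL4A6 by 0.36 ± 0.05 in WT (adjusted p 2.4e-07 and 1.6e-05). In IDRmut COL4A5 fell by 0.16 ± 0.04 (adjusted p 0.0064), a call lost without Control replicate 1 (adjusted p over the alternatives 2.0e-04 to 0.067), and COL4A6 had 0.01 ± 0.05 (adjusted p 0.87). Both were higher in IDRmut than in WT, by 0.27 ± 0.04 and 0.37 ± 0.05 (adjusted p 7.5e-05 and 1.7e-05). Together the 6 type IV genes summed to 394 and 368 CPM in IDRmut, 350.0 and 350.1 CPM in WT and 363 and 370.2 CPM in Control, so IDRmut and Control overlapped in the sum.

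**Figure D3:**
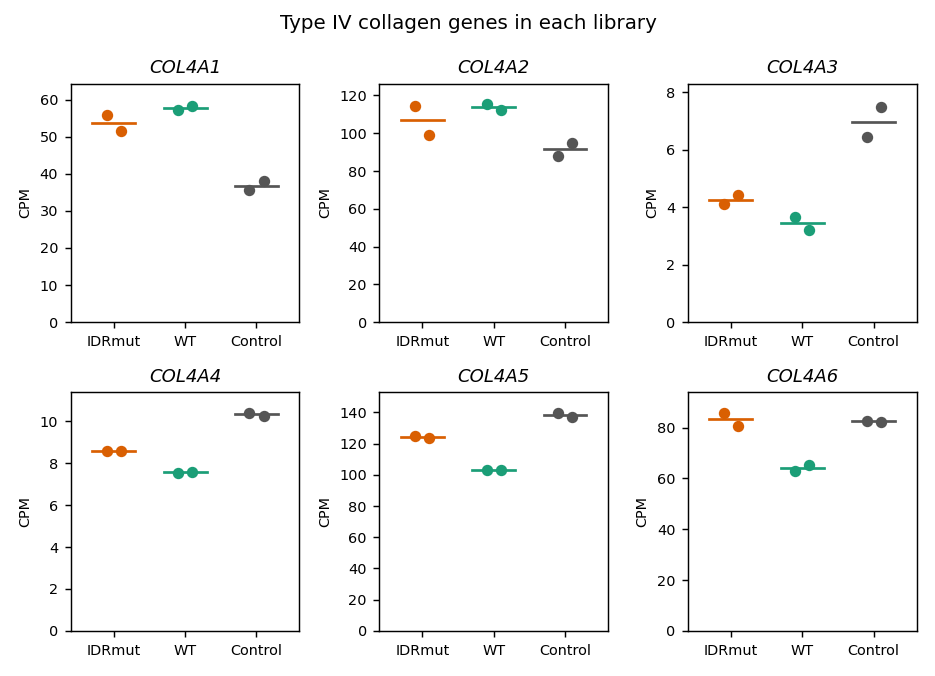
CPM of the 6 type IV collagen genes, with 1 point per library and a line at the group mean, for IDRmut, WT and Control; each axis starts at 0. COL4A1 and COL4A2 lie above Control in both arms, COL4A3 and COL4A4 below it, and COL4A5 and COL4A6 are lowest in WT.

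Among the other classes, COL17A1 was the most abundant collagen transcript and fell in both arms, while COL13A1, the other tested transmembrane collagen, had more counts in both arms than in Control. The promoter windows of 4 genes whose values differed between the arms are shown in the same way, each read on its gene's own strand from 250 bases before its start to 50 bases after.
COL17A1, chr10:104085831-104086130, minus strand: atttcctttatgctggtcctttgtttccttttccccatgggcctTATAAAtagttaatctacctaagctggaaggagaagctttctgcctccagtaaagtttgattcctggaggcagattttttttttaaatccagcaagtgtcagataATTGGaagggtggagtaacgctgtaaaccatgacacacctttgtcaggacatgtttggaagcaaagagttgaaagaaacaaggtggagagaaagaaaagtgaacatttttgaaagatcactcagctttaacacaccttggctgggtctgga
COL13A1, chr10:69801656-69801955, plus strand: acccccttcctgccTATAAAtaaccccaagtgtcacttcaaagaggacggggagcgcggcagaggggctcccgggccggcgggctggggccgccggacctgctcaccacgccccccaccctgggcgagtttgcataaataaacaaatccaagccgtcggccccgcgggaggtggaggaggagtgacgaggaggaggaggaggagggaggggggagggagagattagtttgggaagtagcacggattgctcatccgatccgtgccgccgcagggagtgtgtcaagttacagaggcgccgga
COL7A1, chr3:48595280-48595579, minus strand: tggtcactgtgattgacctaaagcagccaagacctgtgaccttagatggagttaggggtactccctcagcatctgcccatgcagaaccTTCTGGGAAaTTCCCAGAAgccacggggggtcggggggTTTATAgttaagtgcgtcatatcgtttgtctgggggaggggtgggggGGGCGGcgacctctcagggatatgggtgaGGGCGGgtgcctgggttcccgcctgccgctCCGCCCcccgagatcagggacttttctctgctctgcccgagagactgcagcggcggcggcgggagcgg
COL11A1, chr1:103108473-103108772, minus strand: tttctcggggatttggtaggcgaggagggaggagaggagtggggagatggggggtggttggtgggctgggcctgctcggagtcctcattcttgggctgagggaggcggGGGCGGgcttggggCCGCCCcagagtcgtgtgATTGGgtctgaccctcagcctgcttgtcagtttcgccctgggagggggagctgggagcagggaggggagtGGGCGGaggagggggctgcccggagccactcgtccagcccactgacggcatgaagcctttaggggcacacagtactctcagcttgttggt
The COL17A1 window held 1 TATAAA and 1 CCAAT, that of COL13A1 1 TATAAA, and that of COL11A1 3 GGGCGG and 1 CCAAT. The COL7A1 window held 2 TTCNNNGAA, separated by 1 base, beside 3 GGGCGG and 1 TATAAA. Promoter windows were at hand for 32 of the 44 collagen genes, and COL7A1 and COL11A2 were the ones with TTCNNNGAA. Over all 35116 windows of 300 bases in the RefSeq table, TTCNNNGAA was present in 7.66%, TATAAA in 11.5%, CCAAT in 34.6% and GGGCGG in 45.0%. A match describes the letters in the window and is not evidence of binding. The windows of the genes with no match to TTCNNNGAA include those of COL4A1, COL4A2, COL17A1 and COL13A1.

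COL17A1 (ENSG00000065618, chromosome 10 from 104031286 to 104085957) had 1181 and 1096 CPM in IDRmut, 785 and 810.2 CPM in WT and 1307 and 1339 CPM in Control. The groups did not overlap, with Control highest and WT lowest. It fell by 0.22 ± 0.04 in IDRmut (adjusted p 2.9e-04) and by 0.73 ± 0.04 in WT (adjusted p 1.5e-10), and was higher in IDRmut than in WT by 0.51 ± 0.04 (adjusted p 3.0e-08). The summed level of the 10 epithelial and squamous markers had the same order of groups, at 1539 and 1409 CPM in IDRmut, 989.6 and 964 CPM in WT and 1848 and 1839.9 CPM in Control. KRT14 and SOX2 carried most of that sum, and most other members did not share the order: 5 of the 8 tested rose in IDRmut against Control, with a median log2 fold change of 0.77. The sum of the 8 endothelial markers also had the order of COL17A1, at 104 and 101 CPM in IDRmut, 52.7 and 54.4 CPM in WT and 222 and 228 CPM in Control, of which CDH5 held 94.0 and 90.5 CPM in IDRmut, 39.2 and 39.7 CPM in WT and 210.3 and 216 CPM in Control. Among the 5 tested endothelial markers, CDH5 alone was called higher in IDRmut than in WT, and 2 were called lower. KDR had 4.07 and 4.96 CPM in IDRmut, 5.88 and 6.55 CPM in WT and 7.1 and 7.91 CPM in Control. The part of either list in the COL17A1 result was not tested. COL13A1 (ENSG00000197467, chromosome 10 from 69801867 to 69964275) had 79 and 56 counts in IDRmut, 104 and 160 counts in WT and 7 and 10 counts in Control, or 3.88 and 2.55 CPM in IDRmut, 5.09 and 4.68 CPM in WT and 0.355 and 0.538 CPM in Control. Both arms lay above Control, and COL13A1 passed the filter through the ACK1 arms alone. Its fitted log2 fold changes, 2.83 ± 0.32 in IDRmut and 3.43 ± 0.28 in WT, are therefore given without a test. Its lower level in IDRmut than in WT, -0.60 ± 0.18 (adjusted p 0.019), was lost with DESeq2, without IDRmut replicate 2 and without WT replicate 1 (adjusted p over the alternatives 6.3e-04 to 0.23).

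Type VI collagen forms beaded filaments from the chains of COL6A1, COL6A2 and COL6A3, and COL6A1 and COL6A2 rose in both arms. COL6A1 (ENSG00000142156, chromosome 21 from 45981737 to 46005050) had 235 and 209 CPM in IDRmut, 215 and 213 CPM in WT and 171 and 175 CPM in Control. COL6A2 (ENSG00000142173, chromosome 21 from 46098097 to 46132849), 93.0 kb away on the same strand, had 69.1 and 57.8 CPM in IDRmut, 51.8 and 53.9 CPM in WT and 46.1 and 43.6 CPM in Control. Both arms were above Control for each gene, and the IDRmut replicates were the farthest apart. COL6A1 rose by 0.36 ± 0.05 in IDRmut and 0.30 ± 0.05 in WT (adjusted p 2.2e-05 and 8.1e-05). COL6A2 rose by 0.50 ± 0.07 in IDRmut and 0.24 ± 0.07 in WT (adjusted p 4.2e-05 and 0.014). The WT call of COL6A2 was lost without WT replicate 2 or Control replicate 2 (adjusted p over the alternatives 6.3e-05 to 0.14). COL6A2 was higher in IDRmut than in WT by 0.26 ± 0.07 (adjusted p 0.0086), a call lost without IDRmut replicate 1 (adjusted p over the alternatives 2.6e-06 to 0.083), and COL6A1 had 0.05 ± 0.05 there (adjusted p 0.46), which passed without IDRmut replicate 2 (adjusted p over the alternatives 0.0049 to 0.73).

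COL6A3, the long chain of type VI, was nearly silent, with 20 and 19 counts in IDRmut, 36 and 42 counts in WT and 8 and 7 counts in Control. It passed the filter through the ACK1 arms alone, and its fitted log2 fold changes against Control, 1.22 ± 0.40 in IDRmut and 1.87 ± 0.35 in WT, are given without a test. Per kilobase of exon COL6A1 exceeded it by a factor of 879 and 888 in IDRmut, 448 and 636 in WT and 1548 and 1712 in Control.

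The FACIT collagens attach to the surface of fibres, and COL14A1 showed the widest gap between IDRmut and WT of any tested collagen gene. COL14A1 (ENSG00000187955, chromosome 8 from 120059780 to 120372036) had 455 and 457 CPM in IDRmut, 206 and 206 CPM in WT and 323 and 328 CPM in Control. Control lay between the arms and no libraries overlapped. It rose in IDRmut by 0.49 ± 0.03 (adjusted p 9.4e-09), fell in WT by 0.66 ± 0.04 (adjusted p 1.9e-10) and was 2.21-fold higher in IDRmut than in WT (1.15 ± 0.03, adjusted p 5.0e-13). COL12A1 (ENSG00000111799, chromosome 6 from 75084326 to 75206051), the type XII chain, had 130.2 and 131 CPM in IDRmut, 116 and 119.8 CPM in WT and 106 and 105 CPM in Control. Its groups did not overlap. It rose by 0.31 ± 0.04 in IDRmut and 0.16 ± 0.04 in WT (adjusted p 2.0e-05 and 0.0049), and the WT call was lost without WT replicate 2 or Control replicate 2 (adjusted p over the alternatives 6.7e-05 to 0.13). The difference between IDRmut and WT, 0.15 ± 0.04 (adjusted p 0.012), was lost with DESeq2 and without either WT library (adjusted p over the alternatives 5.3e-04 to 0.17).

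COL16A1 (ENSG00000084636, chromosome 1 from 31652247 to 31704319) had 42 and 42 counts in IDRmut, 72 and 109 counts in WT and 25 and 20 counts in Control, or 2.06 and 1.91 CPM in IDRmut, 3.53 and 3.19 CPM in WT and 1.27 and 1.08 CPM in Control. WT was highest and Control lowest, without overlap. It rose by 0.75 ± 0.24 in IDRmut (adjusted p 0.025) and 1.50 ± 0.21 in WT (adjusted p 2.8e-05), with the IDRmut call lost with DESeq2, without IDRmut replicate 1 and without either Control library (adjusted p over the alternatives 0.015 to 0.17). It was lower in IDRmut than in WT, at -0.74 ± 0.18 on the log2 scale (adjusted p 0.0061), which DESeq2 did not call (adjusted p over the alternatives 0.0021 to 0.1). COL9A2 and COL9A3, type IX chains, passed no test, at 3.24 and 2.27 CPM in IDRmut, 2.2 and 1.9 CPM in WT and 2.28 and 1.45 CPM in Control for COL9A2 and 21.8 and 16.0 CPM in IDRmut, 16.5 and 17.7 CPM in WT and 16.7 and 17.7 CPM in Control for COL9A3. Both passed as higher in IDRmut, against WT and against Control, without IDRmut replicate 2. For COL9A3 the adjusted p over the alternatives were 0.0043 to 0.68 against WT and 0.006 to 0.76 against Control, and for COL9A2 0.04 to 0.68 against WT and 0.022 to 0.55 against Control.

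COL7A1, whose product makes the anchoring fibrils that hold the basement membrane to the tissue below, rose in WT alone by the test. COL7A1 (ENSG00000114270, chromosome 3 from 48564073 to 48595267) had 26.3 and 26.1 CPM in IDRmut, 37.6 and 39.2 CPM in WT and 27.0 and 29.2 CPM in Control. WT libraries were above all others. It rose in WT by 0.46 ± 0.06 (adjusted p 2.1e-05), had -0.10 ± 0.07 in IDRmut (adjusted p 0.28), and was lower in IDRmut than in WT, at -0.56 ± 0.06 on the log2 scale (adjusted p 3.5e-06). Of the network-forming types VIII and X, COL8A1 had 9 and 11 counts in IDRmut, 21 and 19 counts in WT and 2 and 2 counts in Control and passed the filter through WT alone, so its fitted log2 fold changes, 2.12 ± 0.68 in IDRmut and 2.76 ± 0.59 in WT, are given without a test. COL10A1 had 8 and 7 counts in IDRmut, 4 and 17 counts in WT and 17 and 9 counts in Control and passed no test. Of the other classes, 14 genes were not tested: the FACIT genes COL9A1, COL19A1, COL20A1, COL21A1 and COL22A1, the type VI genes COL6A5 and COL6A6, the network gene COL8A2, the transmembrane genes COL23A1 and COL25A1, the multiplexins COL15A1 and COL18A1, and COL26A1 and COL28A1.

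**Figure D4:**
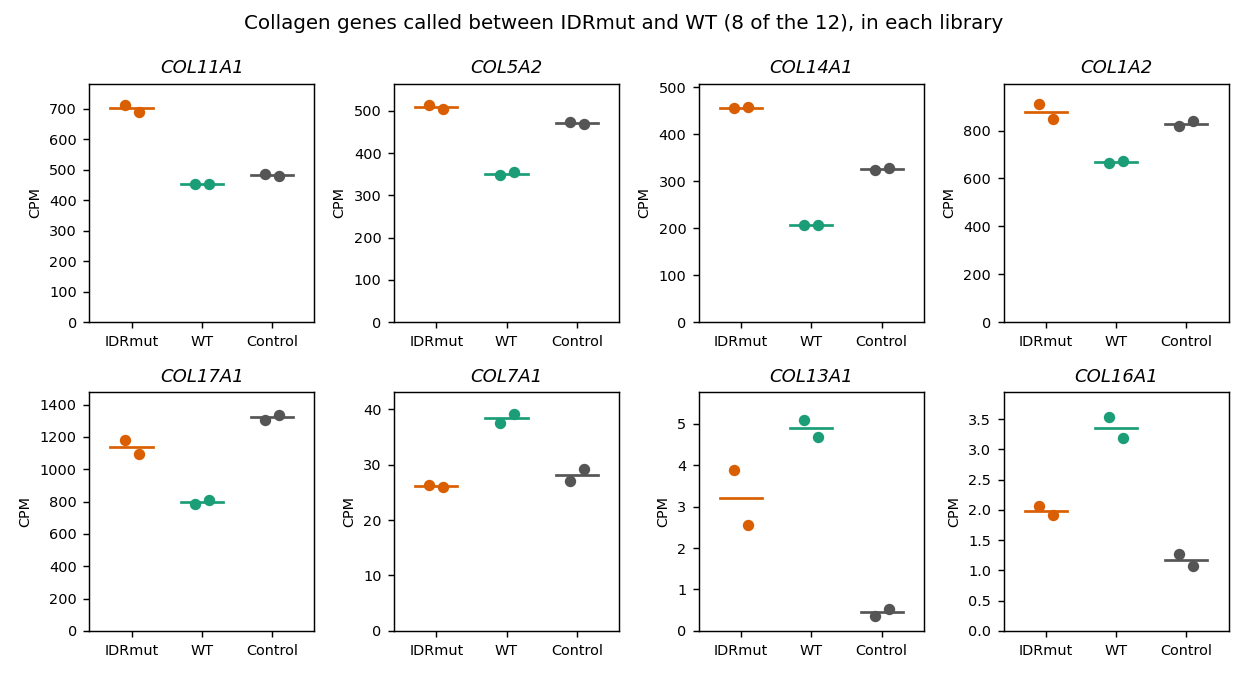
CPM of 8 of the 12 collagen genes called between IDRmut and WT, with 1 point per library and a line at the group mean; each axis starts at 0. COL11A1, COL5A2, COL14A1, COL1A2 and COL17A1 are higher in IDRmut than in WT, and COL7A1, COL13A1 and COL16A1 are higher in WT. COL12A1, COL6A2, COL4A5 and COL4A6, also called higher in IDRmut than in WT, are not in this figure.

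For 7 lists of related genes, the share called is set beside that of all tested genes, which was 31.6% in IDRmut against Control, 35.0% in WT against Control and 26.5% in IDRmut against WT, with higher and lower calls about even. The counts include FKBP10, TLL2, ADAMTS14, LOXL3 and ITGA10, which passed the filter through the ACK1 arms alone, and LAMA3 and TNXB, which passed through IDRmut alone. Such genes can hardly be called lower in the groups that they passed through. The counts, shares and medians of their lists are therefore a description, and no excess over all genes is read from them.

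Of the genes that hydroxylate and fold collagen chains, 18 of 19 were tested: 7 rose and 3 fell in IDRmut, with a median log2 fold change of 0.14, and 6 rose and 4 fell in WT, with a median of -0.01. In IDRmut 9 were higher and 1 lower than in WT, with a median of 0.12. The share called was 55.6% in IDRmut against Control, 55.6% in WT against Control and 55.6% in IDRmut against WT. FKBP10, a chaperone needed for crosslinking of type I collagen, had 9.52 and 9.0 CPM in IDRmut, 8.77 and 9.07 CPM in WT and 0.203 and 0.323 CPM in Control. With 4 and 6 counts in Control it passed the filter through the arms, so its fitted log2 fold changes, 5.12 ± 0.23 in IDRmut and 5.07 ± 0.23 in WT, are given without a test, and the difference between the arms was 0.05 ± 0.10 (adjusted p 0.77). P4HA2, a chain of prolyl 4-hydroxylase, rose in both arms, by 0.76 in IDRmut and 1.04 in WT. PLOD1, a lysyl hydroxylase, fell by 0.16 in IDRmut and 0.45 in WT, and P3H2, a prolyl 3-hydroxylase known for type IV collagen, rose in IDRmut (0.55) and had -0.03 in WT (adjusted p 0.68).

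Of the genes of procollagen export, 8 of 9 were tested: 2 rose and none fell in IDRmut, 2 rose and 2 fell in WT, and 3 were higher and none lower in IDRmut than in WT. Calls made up 25% in IDRmut against Control, 50% in WT against Control and 37.5% in IDRmut against WT, below the share of all genes in IDRmut against Control. MIA3, which loads procollagen into its carriers, rose by 0.33 in IDRmut and 0.18 in WT. Among the genes of propeptide cleavage and crosslinking, 12 of 15 were tested: 7 rose and 3 fell in IDRmut, 5 rose and 3 fell in WT, and 3 were higher and 2 lower in IDRmut than in WT, with medians of 0.46, 0.35 and 0.08. The share called was 83.3% in IDRmut against Control, 66.7% in WT against Control and 41.7% in IDRmut against WT. The 12 include TLL2, ADAMTS14 and LOXL3, which passed the filter through the ACK1 arms alone, so the values against Control are a description. LOX, a lysyl oxidase that crosslinks fibres, had 54.3 and 57.7 CPM in IDRmut, 22.6 and 25.3 CPM in WT and 27.9 and 26.1 CPM in Control. IDRmut stood clear of the other groups. LOX rose in IDRmut by 1.05 ± 0.07 (adjusted p 3.2e-09), exceeded WT by 1.22 ± 0.06 (adjusted p 4.8e-10) and had -0.16 ± 0.07 in WT (adjusted p 0.095). LOXL4, a related oxidase, rose by 0.63 in IDRmut and 0.45 in WT. BMP1, the protease that trims procollagen ends, rose in WT by 0.51, and its relative TLL1 fell by 0.74 in IDRmut and 0.52 in WT.

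Of the collagen receptors, 8 of 10 were tested: 3 rose and 1 fell in IDRmut, 4 rose and 3 fell in WT, and 3 were higher and 1 lower in IDRmut than in WT, with medians of 0.07, 0.12 and 0.18. Called genes made up 50% in IDRmut against Control, 87.5% in WT against Control and 50% in IDRmut against WT. MRC2, an endocytic receptor that clears collagen, had 56.6 and 50.7 CPM in IDRmut, 40.4 and 42.5 CPM in WT and 21.3 and 20.0 CPM in Control and rose by 1.37 ± 0.07 in IDRmut and 1.01 ± 0.07 in WT (adjusted p 2.6e-10 and 7.0e-09). ITGB1, an integrin chain, was lower in both arms, at -0.16 in IDRmut and -0.17 in WT (adjusted p 0.0015 and 0.001). DDR1, a receptor kinase that binds collagen, fell in WT by 0.41, and ITGA11, an integrin chain for fibrillar collagen, was higher in IDRmut than in WT by 2.22 ± 0.26 (adjusted p 5.6e-06), at 2.6 and 3.23 CPM in IDRmut, 0.539 and 0.673 CPM in WT and 1.98 and 1.45 CPM in Control. In the list of collagen breakdown 7 of 11 were tested: 2 rose and 3 fell in IDRmut, 3 rose and 3 fell in WT, and 3 were higher and 3 lower in IDRmut than in WT. The share called was 71.4% in IDRmut against Control, 85.7% in WT against Control and 85.7% in IDRmut against WT. MMP2, a gelatinase, had 319.8 and 292 CPM in IDRmut, 378 and 382 CPM in WT and 571 and 603 CPM in Control. Control was highest and IDRmut lowest, without overlap. MMP2 fell by 0.94 ± 0.04 in IDRmut and 0.63 ± 0.04 in WT (adjusted p 5.5e-11 and 4.0e-09), while the metalloproteinase inhibitor TIMP3 rose by 1.02 in IDRmut and 0.56 in WT.

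Of the proteins that share the basement membrane with type IV collagen, 14 of 16 were tested: 7 rose and 2 fell in IDRmut, 6 rose and 5 fell in WT, and 6 were higher and 5 lower in IDRmut than in WT, with medians of 0.19, -0.01 and -0.03. Of the tested members, the called share was 64.3% in IDRmut against Control, 78.6% in WT against Control and 78.6% in IDRmut against WT. The laminin chain gene LAMB3 had 86.4 and 78.0 CPM in IDRmut, 104 and 103 CPM in WT and 44.6 and 43.0 CPM in Control and rose by 0.91 in IDRmut and 1.24 in WT. HSPG2, which encodes perlecan, had 113 and 91.9 CPM in IDRmut, 55.1 and 57.9 CPM in WT and 72.5 and 71.2 CPM in Control, higher in IDRmut than in WT by 0.85 ± 0.07 (adjusted p 1.1e-07). NID2, a nidogen that links laminin to type IV collagen, fell by 0.92 in IDRmut and 0.35 in WT. Of the fibril-binding proteins 6 of 12 were tested: 4 rose and 1 fell in IDRmut, 1 rose and 2 fell in WT, and 2 were higher and 1 lower in IDRmut than in WT. Among these, the share called was 83.3% in IDRmut against Control, 50% in WT against Control and 50% in IDRmut against WT. SPARC, a collagen-binding glycoprotein, had 1419.9 and 1430.4 CPM in IDRmut, 1112 and 1116 CPM in WT and 1267 and 1281 CPM in Control; it rose in IDRmut by 0.16 and fell in WT by 0.19. BGN, the proteoglycan biglycan, rose in IDRmut by 2.07 and had 0.27 in WT (adjusted p 0.27), and THBS1, thrombospondin, rose by 0.67 in IDRmut and 0.72 in WT. FN1, fibronectin, was lower in both arms, at -0.41 in IDRmut and -0.11 in WT (adjusted p 3.0e-07 and 0.025). It was also lower in IDRmut than in WT, at -0.30 (adjusted p 1.6e-05).

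**Figure D5:**
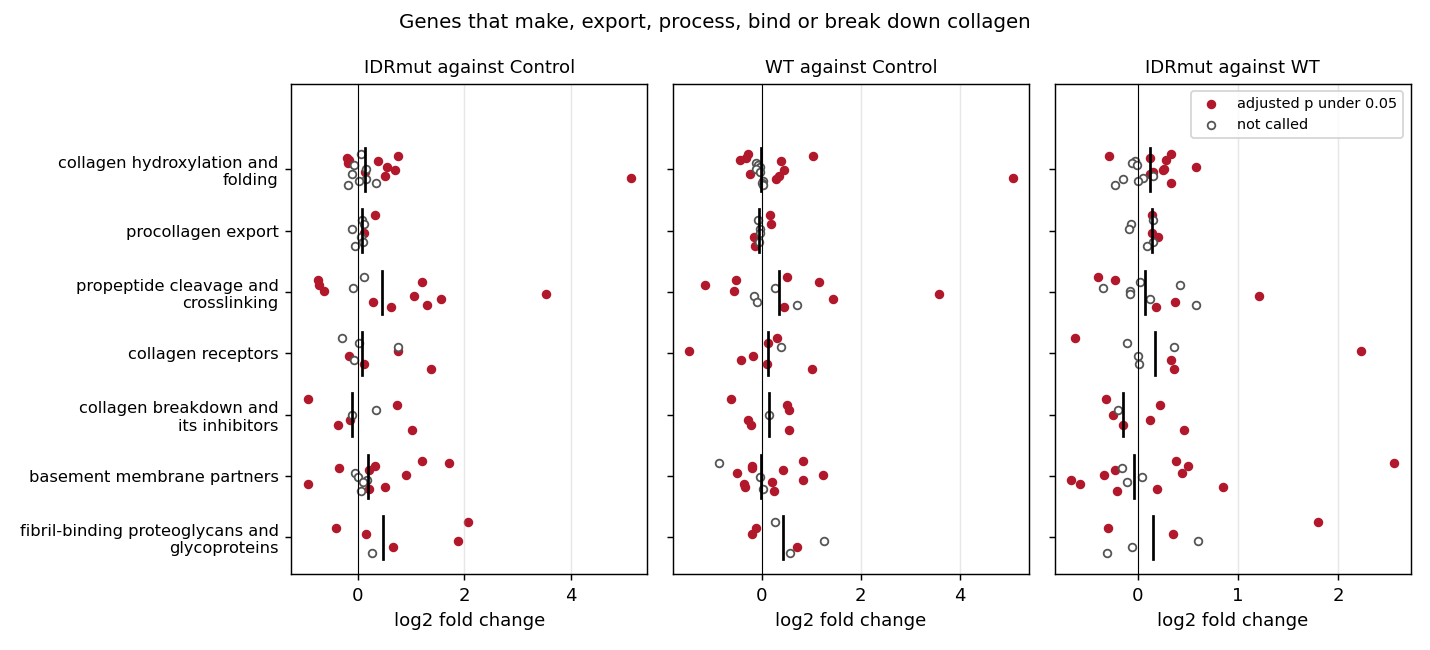
Log2 fold changes of the tested genes on 7 lists of collagen-related functions in the 3 comparisons; each point is a gene, filled where adjusted p is under 0.05, and the black bar is the list's median. FKBP10, which passed the filter through the ACK1 arms alone, is the far point of the hydroxylation and folding list, at 5.12 in IDRmut and 5.07 in WT against Control.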

How the data were processed

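The table as deposited gives unscaled read counts for each gene ID. HISAT2 2.2.1, SAMtools 1.14 and featureCounts 2.0.1, with GRCh38, made it per the submitters' processing notes. For the annotation release, strandedness and multi-mapping reads, the settings were not given in the sources used here, so reads of overlapping genes could not be separated. Exons of other genes overlapped at most 1.32% of the exon bases of the 27 tested collagen genes, and 16.4% of those of COL18A1, which was not tested. Names matched 61369 IDs from a current table and 105 from GENCODE release 29, which also gave positions and exon lengths. The union of exons was used as length, so levels per kb are low for genes with long minor exons. Whether replicates were separate cultures is not stated; the p-values then reflect library spread alone, which may be technical, and PCR reads are not independent molecules.

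Genes were kept by filterByExpr (minimum count 10, minimum total 15), leaving 16591 with at least 99.8% of each library's counts. All 6 libraries entered 1 fit of group means in edgeR 4.0.16 (R 4.3.3) with TMM scaling, tested by the quasi-likelihood test and adjusted by Benjamini-Hochberg over the 16591 genes. SE is the log2 fold change divided by the square root of the test's F. Values are per library or mean ± SD (n = 2). Alternatives were DESeq2 1.42.0, other scalings, no filter, a replicate block, only the groups compared, each library left out, and offsets for GC content and length over 16299 genes. A fit with a library left out takes the lone library of a group to vary like the others.

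The collagen genes, the lists of related genes and the motifs were chosen with earlier results of these data known, and the lists were written from general knowledge. Collagen genes called in at least 1 comparison with a group mean of at least 1 CPM are given per library, and the others by counts; COL8A1 was called below that mean. From each related list the genes named are among the up to 3 with the smallest adjusted p per comparison, plus FKBP10. Protein sequences were not used here.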

Additional observations from a re-analysis of the deposited data

Results flagged for a closer look

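The 3 collagen genes here were picked because edgeR's quasi-likelihood test called their arms in opposite directions against Control. A called difference between the arms in the same test was also required. Opposite calls make that difference all but sure to pass, so it is no further support. COL14A1 was higher in IDRmut than in WT by 1.15 on the log2 scale, COL11A1 by 0.63 and COL5A2 by 0.54 (adjusted p 5.0e-13, 4.8e-10 and 4.0e-09). Against Control, COL14A1 had 0.49 in IDRmut and -0.66 in WT, COL11A1 0.54 and -0.09, and COL5A2 0.11 and -0.42 in the same order. The opposite calls of COL14A1 held in every alternative, while the WT call of COL11A1 and the IDRmut call of COL5A2 were lost in some. Groups of 2 libraries are too small to look for a library that stands apart.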

How the results depend on the processing

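Of 50 calls of collagen genes over the 3 comparisons, 36 held under every alternative and 14 were lost in at least 1; 10 that had not passed did so in at least 1, and none was reversed. DESeq2 called 3290 genes in IDRmut against Control (1541 higher, 1749 lower), 3649 genes in WT against Control (1799 higher, 1850 lower) and 2537 genes in IDRmut against WT (1187 higher, 1350 lower), where it gave adjusted p-values for 13052 genes, and 1 collagen gene lower in IDRmut than in WT. With 1 library left out, the calls ranged from 3451 to 5522 genes in IDRmut against Control (1643 to 2623 higher, 1808 to 2899 lower), from 3974 to 7028 in WT against Control (2017 to 3390 higher, 1944 to 3683 lower) and from 2590 to 4761 in IDRmut against WT (1218 to 2306 higher, 1372 to 2455 lower). Collagen calls ranged from 10 to 19 in IDRmut against Control (8 to 16 higher, 2 to 3 lower), from 18 to 21 in WT against Control (10 to 12 higher, 8 to 9 lower) and from 10 to 14 in IDRmut against WT (8 to 12 higher, 2 to 6 lower). Same-numbered libraries did not deviate together (correlations of -0.03, -0.02 and -0.02), so the numbers were not taken as pairs; with the replicate block 4836, 5440 and 3966 genes were called, 17, 20 and 12 of them collagen genes. Genes with few counts, such as COL1A1, COL6A3 and COL8A1, have wide errors. The collagen calls counted here, also those that held, include calls of COL13A1, COL1A1, COL6A3 and COL8A1 against Control. These genes passed the filter only where they were high, so the counts of collagen calls are a description.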
